A study of Mus musculus with 42 samples.

Results

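The interferon response genes described here are 36 genes whose transcription interferons are known to raise, taken by symbol from a list of members out of 54446 genes counted in mouse liver. All 36 were found in the table and 33 of them had enough counts to be tested. The livers came from female APOE*3-Leiden mice, which carry a human APOE variant that makes their plasma lipids respond to diet and to statins, and 1 library was made per mouse at week 32. A healthy reference group stayed on maintenance chow (n = 10). The WTD group (n = 16) received a Western-type diet (WTD) with 15% cocoa butter, 40.5% sucrose and 1% cholesterol, and 0.05% sodium cholate was added to it from week 22 onward. The third group (n = 16) received that diet with atorvastatin, an inhibitor of cholesterol synthesis, at 3.0 mg/kg per day, which was raised to 4.5 mg/kg per day at week 5. WTD-fed mice were 8 to 14 weeks old when a run-in of 3 weeks on the diet began, after which the treated mice were started on the drug, and the labels give no age for chow-fed mice. The mouse numbers of all chow-fed mice carry another prefix than those of both WTD-fed groups, so that an origin this prefix may stand for and the diet cannot be told apart.

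Interferons are secreted in response to viral or self nucleic acids. Type I interferons bind IFNAR1 and IFNAR2, whose kinases JAK1 and TYK2 activate STAT2, which joins IRF9 in a complex that binds the interferon-stimulated response element (ISRE). Interferon gamma acts through IFNGR1, IFNGR2, JAK1 and JAK2 on genes with a gamma-activated site (GAS). The genes so induced encode RNA sensors, proteins that bind or degrade viral RNA, the ubiquitin-like ISG15 and GTPases that attack the compartments of pathogens, and in the liver they are expressed by hepatocytes as well as by macrophages and endothelium.

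Promoter windows from RefSeq (GRCm38.p6), reaching from 250 bases before to 50 bases after a start site, were matched to 28 of the 36 members by symbol. No window was at hand for Oas2, Mx2, Usp18, Ifi27, Dhx58, Gbp6, Rtp4 and Parp14. Both motifs were searched on either strand, the ISRE as GAAANNGAA and the GAS as TTCNNNGAA, which is its own reverse complement, and a GAS match can share bases with an ISRE match. The ISRE was found in 18 of the 28 member genes, which is 64.3% (95% Wilson interval 45.8% to 79.3%). It was found in 9.76% of all 27025 genes with windows of that length outside chromosome 18, which was left out and holds no member. A GAS match was held by 9 of 28 members, or 32.1% (17.9% to 50.7%), compared to 9.55% of all genes. With 1 more A at its end the ISRE was found in 57.1% of the members and 3.99% of all genes. In 7 members, Bst2, Gbp3, Ifit1, Irgm1, Isg15, Oas1a and Oas3, matches stood 6 bases apart and shared 3 bases. By response to the diet, the ISRE was held by 7 of 11 raised members with a window, 2 of 2 lowered ones and 8 of 13 without a call, and the raised members without a match were Ifit2, Irf7, Oasl2 and Cmpk2.

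**Figure D1:**
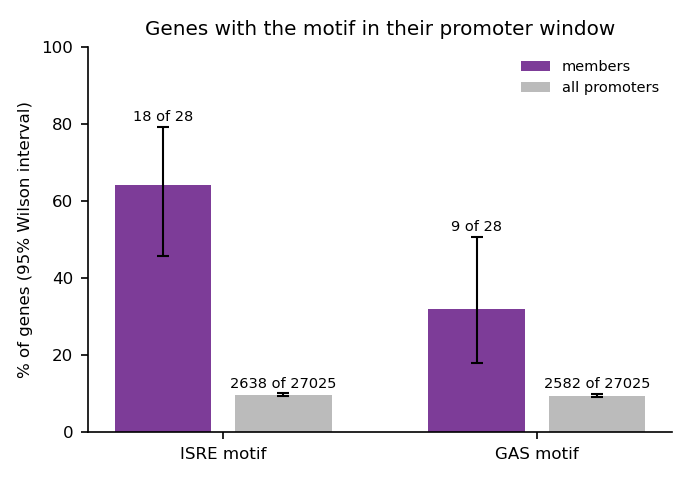
Share of genes (%, y axis) with at least 1 match to the ISRE or the GAS motif in their 300-base promoter window, for the members (purple) and for all genes (grey), with 95% Wilson intervals. The ISRE was held by 18 of 28 members (64.3%) and 9.76% of all genes, the GAS by 9 of 28 members (32.1%) and 9.55% of all genes.

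The 250 bases before the start site are shown for 7 members on which the results turn. Ifit1 and Ifit2 are neighbours that responded unequally to the diet, Oas1a and Oas3 were among the most raised members, Isg15 is the gene of the ubiquitin-like modifier, Gbp7 holds both motifs, and Stat2 had the smallest p of the lowered members. Each is written 5′ to 3′ on the strand of the gene, with ISRE and GAS matches in capitals, an ISRE on the opposite strand appearing as its reverse complement.
Ifit1, chr19:34640639-34640888, plus strand: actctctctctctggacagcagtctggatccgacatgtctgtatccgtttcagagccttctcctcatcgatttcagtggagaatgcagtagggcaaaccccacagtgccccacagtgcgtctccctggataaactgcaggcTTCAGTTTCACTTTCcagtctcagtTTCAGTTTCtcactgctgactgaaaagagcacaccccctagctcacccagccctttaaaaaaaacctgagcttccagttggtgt
Ifit2, chr19:34550444-34550693, plus strand: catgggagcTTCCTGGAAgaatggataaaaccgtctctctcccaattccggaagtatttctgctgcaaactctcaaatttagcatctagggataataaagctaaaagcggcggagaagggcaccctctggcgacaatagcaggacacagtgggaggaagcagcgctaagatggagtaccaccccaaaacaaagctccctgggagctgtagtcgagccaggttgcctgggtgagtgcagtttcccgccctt
Isg15, chr4:156200819-156201068, minus strand: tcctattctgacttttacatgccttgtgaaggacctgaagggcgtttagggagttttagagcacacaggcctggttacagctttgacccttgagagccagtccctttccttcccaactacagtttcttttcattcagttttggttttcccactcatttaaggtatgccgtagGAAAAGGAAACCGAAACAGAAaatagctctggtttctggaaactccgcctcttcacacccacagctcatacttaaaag
Oas1a, chr5:120907526-120907775, minus strand: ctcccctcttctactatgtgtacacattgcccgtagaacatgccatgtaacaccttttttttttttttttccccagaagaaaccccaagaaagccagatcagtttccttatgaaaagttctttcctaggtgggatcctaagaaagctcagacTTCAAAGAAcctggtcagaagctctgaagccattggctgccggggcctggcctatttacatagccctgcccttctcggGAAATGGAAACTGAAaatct
Oas3, chr5:120777660-120777909, minus strand: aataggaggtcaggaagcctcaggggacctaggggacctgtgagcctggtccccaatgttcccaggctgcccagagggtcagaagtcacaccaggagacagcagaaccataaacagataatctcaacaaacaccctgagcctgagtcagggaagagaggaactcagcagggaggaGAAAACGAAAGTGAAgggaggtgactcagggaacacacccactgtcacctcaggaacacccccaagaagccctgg
Gbp7, chr3:142530086-142530335, plus strand: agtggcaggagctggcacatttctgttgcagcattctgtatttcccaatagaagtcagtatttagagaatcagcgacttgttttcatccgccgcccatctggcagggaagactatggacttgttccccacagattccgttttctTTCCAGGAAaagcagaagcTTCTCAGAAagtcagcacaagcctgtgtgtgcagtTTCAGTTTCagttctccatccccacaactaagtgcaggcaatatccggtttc
Stat2, chr10:128270248-128270497, plus strand: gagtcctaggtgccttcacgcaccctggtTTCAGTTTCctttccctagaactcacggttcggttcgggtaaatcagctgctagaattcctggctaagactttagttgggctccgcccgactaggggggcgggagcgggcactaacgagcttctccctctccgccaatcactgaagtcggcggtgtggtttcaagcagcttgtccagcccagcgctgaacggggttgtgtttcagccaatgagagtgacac
Ifit1 and Isg15 each held 3 ISRE matches, at 109, 103 and 84 and at 78, 72 and 66 bases before the start site. Oas1a held an ISRE pair at 20 and 14 bases beside a GAS match at 98 bases, and Oas3 a pair at 75 and 69 bases. Gbp7 held 1 ISRE at 52 bases with GAS matches at 106 and 87 bases, and Stat2 1 ISRE at 221 bases. In the window of Ifit2 shown, the first of 2 in RefSeq, the only match was a GAS at 241 bases.

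In GENCODE vM21 (GRCm38), Ifit2 lies at chr19:34550694-34576419 with Ifit3 and Ifit1 following on the same strand, Oas3 at chr5:120753098-120777661 between Oas2 and Oas1a, Oasl2 at chr5:114896936-114912234 next to Oasl1, Gbp2 at chr3:142620602-142638008 near Gbp3 and Gbp7, and Stat2 at chr10:128270559-128292849.

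Levels are given as CPM, counts scaled to a common library size. Between 15661381 and 36224054 counts were obtained per mouse. Libraries differed in how many weak genes they captured, and in 9 of them (3 of chow-fed, 5 of WTD-fed and 1 of atorvastatin-treated mice) over 20% of the genes at 1 to 2 CPM had no count. The hepatocyte markers Alb, Apoa1, Ttr, Hnf4a, Cyp2e1 and Cps1 were all abundant, at 105300, 49580 and 57660 summed CPM or more in the 3 groups. Of the 33 tested members, the lowest group median was 2.32 CPM, that of Oas3 on chow, and none passed the filter in 1 group alone. Irf8, a myeloid transcription factor, and the GTPase genes Gbp6 and Igtp had 0 counts in every one of the 42 mice. Each lies almost wholly (100%, 100% and 99.2% of its length) inside another annotated gene on the same strand, namely Gm20388, Gm43302 and Irgm2, so that no direction is given for them. Smaller stretches of Irgm2 (34.4%) and Rtp4 (42.4%) lie inside other genes as well, and 4.4% and 13.9% of their exon bases are shared. Gbp7 has 3.2% of its length inside Gm43802 and shares 11.3% of its exon bases with it. The counts of Irgm2, Rtp4 and Gbp7 are therefore uncertain, to an extent that was not tested. Oas1a and Ifit3 have close copies in their clusters, Oas1g and Ifit3b, as Apol9b named below has in Apol9a, so that reads could be split or lost between such copies.

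Per kilobase of exon, chow-fed mice expressed Bst2, the tetherin that holds virions at the cell surface, at 240.8 CPM, and Ifi27, a small membrane protein, at 108.5 CPM. The other members lay between 24.9 CPM per kilobase for Stat2 and 0.309 for Oas3. The members that were lowest per length on chow were Oas3, Ifi44, Ifit2, Oasl2 and Cmpk2. These 5 all rose on WTD, while the next lowest, Oas2 and Rsad2, had no call. The order and the rise use the same chow values, so that a low chow value favours both, and a link was not tested.

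WTD feeding raised 12 of the 33 tested members (36.4%) and lowered 4 (12.1%) compared to chow, while 17.5% of all 15574 tested genes were called higher and 16.0% lower (edgeR quasi-likelihood test, Benjamini-Hochberg adjusted p under 0.01 over all genes). The share of members called higher was above that of all genes and the share called lower was not. The median log2 fold change was 0.27 over the tested members and 0.03 over all tested genes. In 4 members, Ifit2, Oas1a, Oas3 and Oasl2, every WTD-fed mouse lay above every chow-fed mouse (12.1% of members, 3.4% of all genes). No member showed the opposite separation, which 2.43% of all genes did. The members were chosen with results of these data known, and these counts describe them without a test of the list.

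The family of oligoadenylate synthetases, which make the second messenger that activates RNase L, held the largest change. Oas3 was at 0.101, 2.32 and 3.45 CPM in the lowest, median and highest chow-fed mouse, at 6.41, 11.6 and 20.3 CPM in WTD-fed mice and at 7.44, 16.8 and 21.3 CPM in atorvastatin-treated mice. Chow-fed mice were thus separate from both WTD-fed groups, which overlapped each other over most of their range. The log2 fold change of WTD over chow was 2.56 ± 0.26 (SE, n = 16 and 10, edgeR adjusted p = 3.9e-12), a 5.90-fold rise. Oas1a ranged from 2.30 over a median of 7.66 to 11.8 CPM on chow and from 15.4 over 25.8 to 34.0 CPM on WTD. All WTD-fed mice again exceeded all chow-fed mice, whereas in the treated mice (9.89, 24.0 and 40.2 CPM) the lowest fell within the chow range. This was a rise by 1.72 ± 0.19 on the log2 scale (edgeR adjusted p = 5.1e-11). Oasl2, a synthetase-like protein with ubiquitin-like domains, had 7.99, 10.7 and 21.1 CPM on chow, 27.0, 39.0 and 54.1 CPM on WTD and 20.5, 37.1 and 46.3 CPM with atorvastatin. It rose by 1.65 ± 0.14 (edgeR adjusted p = 2.6e-14), and 2 chow-fed mice reached about 20 CPM while the others stayed near 10 CPM. The remaining relatives did not pass the test, with log2 differences of 0.56 ± 0.18 for Oas2 (edgeR adjusted p = 0.011) and 0.23 ± 0.15 for Oasl1 (edgeR adjusted p = 0.23).

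Of the IFIT genes, whose proteins bind viral RNA and block its translation, Ifit2 and Ifit3 rose and Ifit1 did not pass the test. Ifit2 ranged from 1.56 to 8.91 CPM on chow with a median of 5.45 CPM, from 15.0 to 36.5 CPM on WTD with a median of 23.6 CPM, and from 17.6 to 31.2 CPM with atorvastatin with a median of 23.9 CPM. No mouse of either WTD-fed group was as low as the highest chow-fed mouse. Its rise of 2.14 ± 0.17 on the log2 scale, or 4.42-fold, had the smallest p of all members (edgeR adjusted p = 1e-15). Ifit3 rose by 0.65 ± 0.11 (edgeR adjusted p = 5.3e-06), and all 16 WTD-fed mice were above the chow median. Ifit1, a common reporter of interferon action, stood at 9.79, 13.8 and 24.2 CPM on chow, 11.0, 17.4 and 23.5 CPM on WTD and 8.85, 20.4 and 28.0 CPM with atorvastatin. All 16 WTD-fed mice and 13 of 16 treated mice fell within the chow range, and for WTD over chow the difference of 0.15 ± 0.15 had an interval from -0.15 to 0.45 (edgeR adjusted p = 0.45).

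Of 3 genes of the ISG15 system, 0 were called by edgeR, 1 (Usp18) had an unadjusted p under 0.05, and DESeq2 and limma-voom called 0. Isg15 was at 8.24, 16.2 and 20.4 CPM in the lowest, median and highest chow-fed mouse, at 7.65, 16.3 and 20.6 CPM on WTD and at 9.67, 17.1 and 23.6 CPM with atorvastatin. Group medians lay close together, with 8 of 16 WTD-fed mice above the chow median, and the log2 difference was 0.05 with an interval from -0.27 to 0.36 (edgeR adjusted p = 0.84). Usp18, the protease that removes ISG15 and dampens IFNAR signalling, was at 11.9, 16.9 and 29.4 CPM on chow, 17.5, 22.7 and 36.1 CPM on WTD and 15.8, 22.6 and 30.7 CPM with atorvastatin. All 16 WTD-fed mice exceeded the chow median, yet the difference of 0.38 ± 0.14 did not pass (edgeR adjusted p = 0.025). Trim25, a ubiquitin ligase that activates the sensor RIG-I, differed by -0.13 ± 0.08 (edgeR adjusted p = 0.15).

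All 3 sensors of cytosolic RNA rose by similar amounts. Ddx58, which encodes RIG-I, stood at 17.0, 32.8 and 38.1 CPM on chow, 30.4, 44.1 and 53.8 CPM on WTD and 37.0, 51.8 and 62.7 CPM with atorvastatin. The WTD range overlapped that of chow, while 15 of 16 WTD-fed mice were above the chow median, and the log2 fold change was 0.52 ± 0.10 (edgeR adjusted p = 3.2e-05). Ifih1, which encodes the sensor of long double-stranded RNA, rose by 0.44 ± 0.12 (edgeR adjusted p = 0.0021), and Dhx58, a related regulator of both sensors, by 0.45 ± 0.13 (edgeR adjusted p = 0.0039). Without the 9 libraries poor in weak genes these fold changes were 0.26 and 0.30 and no longer passed.

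Of 4 tested transcription factors, 1 rose and 1 fell. Irf7, which amplifies type I interferon production, ranged from 36.9 over a median of 53.6 to 95.5 CPM on chow, from 69.3 over 82.7 to 131.8 CPM on WTD and from 63.0 over 98.4 to 122.9 CPM with atorvastatin. Every WTD-fed mouse was above the chow median, and the rise was 0.61 ± 0.12 on the log2 scale (edgeR adjusted p = 3.1e-05). Stat2, the transactivating part of the complex that binds the ISRE, went the other way. It stood at 118.7, 149.7 and 177.0 CPM on chow, at 62.2, 87.7 and 133.7 CPM on WTD and at 87.1, 108.3 and 126.6 CPM with atorvastatin. All 16 WTD-fed mice were below the chow median, with 1 of them inside the chow range, and Stat2 fell by 0.75 ± 0.09 (edgeR adjusted p = 4.4e-10), to 0.596 of its chow level. Irf1, a mediator of interferon gamma responses, was at 70.4, 84.3 and 96.9 CPM on chow, 57.1, 76.3 and 103.0 CPM on WTD and 47.9, 81.7 and 96.8 CPM with atorvastatin. These ranges overlapped almost fully, with log2 differences of -0.11 ± 0.09 for Irf1 (edgeR adjusted p = 0.35) and -0.10 ± 0.08 for Irf9, the DNA-binding part of the same complex as Stat2 (edgeR adjusted p = 0.34).

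Among the GTPases, Gbp2 and Irgm1 changed in opposite directions. Gbp2, a guanylate-binding protein that coats pathogen vacuoles, ranged from 4.22 over a median of 12.6 to 26.5 CPM on chow, from 17.4 over 27.3 to 43.8 CPM on WTD and from 17.0 over 24.4 to 41.3 CPM with atorvastatin. All 16 WTD-fed mice were above the chow median, although the highest chow-fed mouse came close to the WTD median, and Gbp2 rose by 1.09 ± 0.19 (edgeR adjusted p = 3.8e-06). Irgm1, an immunity-related GTPase that regulates its relatives on membranes, had 71.5, 87.8 and 154.9 CPM on chow, 55.2, 69.8 and 88.8 CPM on WTD and 57.9, 77.7 and 101.1 CPM with atorvastatin. It fell by 0.37 ± 0.09 (edgeR adjusted p = 0.0012), with 14 of 16 WTD-fed mice below the chow median, and the adjusted p became 0.012 without chow-fed mouse 5, the highest of all. Irgm2 and Gbp7 differed by -0.40 ± 0.13 and -0.44 ± 0.15 (edgeR adjusted p = 0.013 and 0.011) and Gbp3 by 0.24 ± 0.15 (edgeR adjusted p = 0.2). Without the 9 libraries, Irgm2 at -0.55 and Gbp7 at -0.61 passed the test as lower.

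Of 10 other effectors 2 rose and 2 fell, 20% in each direction and near the shares of all tested genes. Ifi44, a protein of unclear antiviral function, was at 2.71, 4.89 and 10.4 CPM on chow, 2.25, 11.3 and 17.6 CPM on WTD and 5.84, 14.2 and 19.8 CPM with atorvastatin. One WTD-fed mouse was below the chow range and the other 15 were above the chow median, and the rise was 1.10 ± 0.21 (edgeR adjusted p = 2.5e-05). Cmpk2, a mitochondrial nucleotide kinase, rose by 0.78 ± 0.23 (edgeR adjusted p = 0.0057), while its neighbour Rsad2, which encodes viperin, differed by 0.51 ± 0.18 (edgeR adjusted p = 0.019). Cmpk2 was at 0.54 and no longer passed without the 9 libraries. Ifi27 had 111.1, 163.8 and 197.1 CPM on chow, 79.0, 118.4 and 145.3 CPM on WTD and 99.9, 143.0 and 200.1 CPM with atorvastatin. No WTD-fed mouse reached the chow median, and Ifi27 fell by 0.42 ± 0.09 (edgeR adjusted p = 0.00013). Mx2, annotated as a polymorphic pseudogene in this genome, fell by 0.58 ± 0.17 (edgeR adjusted p = 0.0044). Bst2 stood at 173.2, 217.6 and 268.1 CPM on chow, 161.5, 209.3 and 261.8 CPM on WTD and 171.4, 212.1 and 247.5 CPM with atorvastatin, and its difference of -0.03 had an interval from -0.18 to 0.12 (edgeR adjusted p = 0.77). Its direction turned to 0.01 with RLE scaling. Xaf1, a binding partner of apoptosis inhibitors, Parp14, an ADP-ribosyltransferase, Rtp4, a receptor transporter protein, and Ifi35 had log2 differences between -0.04 and 0.33 and did not pass.

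**Figure D2:**
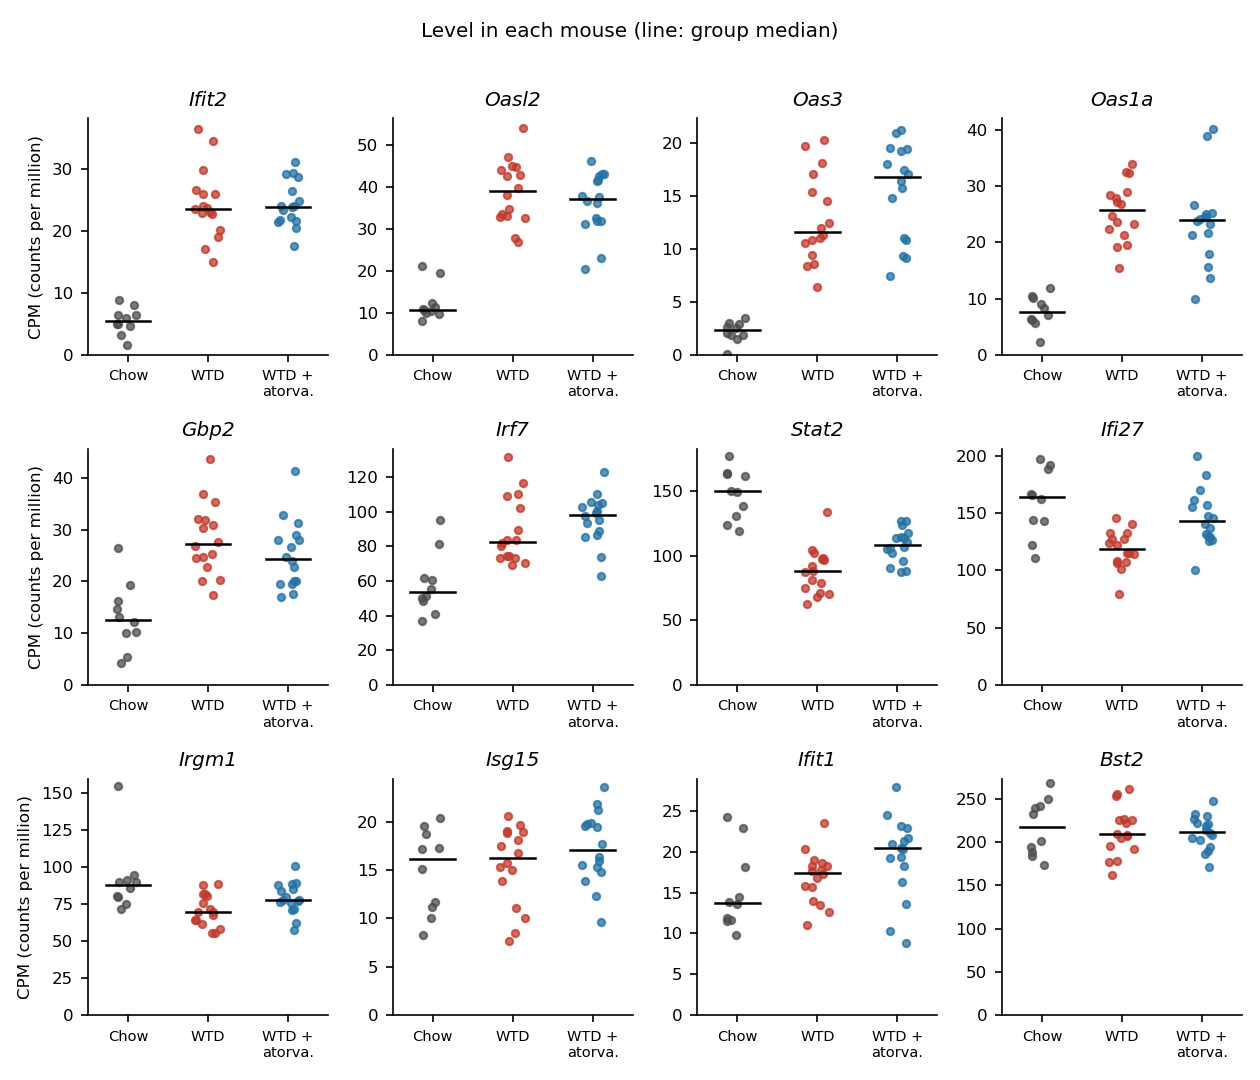
Level of 12 members in each mouse (y axis, CPM; x axis, group), with 10 chow-fed mice in grey, 16 WTD-fed mice in red and 16 atorvastatin-treated mice in blue, and the group median as a line. Ifit2, Oas1a, Oas3 and Oasl2 of all WTD-fed mice lay above those of all chow-fed mice, Stat2 and Ifi27 were lower on WTD, and Isg15, Ifit1 and Bst2 overlapped between groups.

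Of the 12 members that the diet had raised, edgeR called 0 higher and 0 lower with atorvastatin, while 3 of them, Ddx58, Ifih1 and Ifi44, were called higher by limma-voom, at 0.29, 0.26 and 0.42 (adjusted p = 0.00031, 0.0022 and 0.0039), and Ddx58 also by edgeR without the 9 libraries, at 0.28 (adjusted p = 0.0065). Compared to WTD, 2 of 33 tested members were called higher (6.06%) and 0 lower by edgeR, while 4.84% of all tested genes were called higher and 2.26% lower. At an unadjusted p under 0.05, 8 members were higher and 0 lower, beside 2214 higher and 1608 lower of all 15574 tested genes. DESeq2 and limma-voom called 0 members lower as well. The median log2 difference was 0.15 over the members and 0.00 over all genes. Above 0 were 23 of 33 members and 7825 of all 15574 tested genes. For the 12 raised members the differences ranged from -0.17 to 0.32, with 7 above and 5 below 0, the outermost 95% limits were -0.48 and 0.68 and the smallest edgeR adjusted p was 0.085. Ifit2, at a difference of 0.00 (interval -0.27 to 0.26), and Oasl2, at -0.10 (-0.33 to 0.13), had narrower intervals than Oas3 (-0.13 to 0.66) and Ifi44 (-0.04 to 0.68). Over all genes, 68.2% of the calls were higher with TMM and 54.9% with RLE scaling. All genes called higher numbered 754 in the edgeR fit to all mice, 1819 with limma-voom and 1050 without the 9 libraries.

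The 2 members called higher with atorvastatin were Stat2 and Ifi27. Both were also called lower on WTD than on chow, but the 2 comparisons use the same 16 WTD-fed mice with opposite sign, so that opposite directions are no independent evidence. Stat2 was higher by 0.30 ± 0.08 (edgeR adjusted p = 0.0065) and Ifi27 by 0.30 ± 0.08 (edgeR adjusted p = 0.0077), in each case with 15 of 16 treated mice above the WTD median. Both calls lay near the threshold. They were at 0.25 or 0.26 and did not pass with RLE scaling or DESeq2, and they were lost in 12 (Stat2) and 14 (Ifi27) of the 42 fits that left out 1 mouse each. The other 6 members with an unadjusted p under 0.05 were Irgm2, Trim25, Gbp7, Oasl1, Ddx58 and Ifih1. Irgm2 was at 61.0, 84.9 and 126.3 CPM on chow, 48.3, 60.4 and 101.2 CPM on WTD and 57.2, 84.8 and 153.7 CPM with atorvastatin, and differed by 0.37 ± 0.12 (edgeR adjusted p = 0.03). For Trim25 the lowest, median and highest mice were at 89.8, 108.8 and 151.2 CPM on chow, 84.2, 105.9 and 121.9 CPM on WTD and 91.4, 121.7 and 141.1 CPM with atorvastatin, a difference of 0.20 ± 0.07 (edgeR adjusted p = 0.04). Gbp7 was at 15.6, 22.9 and 39.3 CPM on chow, 10.5, 17.8 and 27.7 CPM on WTD and 14.7, 22.6 and 37.6 CPM with atorvastatin, and differed by 0.34 ± 0.13 (edgeR adjusted p = 0.069). Its treated median was close to that of chow, and so was that of Irgm2. Oasl1, at 15.2, 23.7 and 30.0 CPM on chow, 19.1, 25.2 and 39.3 CPM on WTD and 13.4, 36.2 and 52.1 CPM with atorvastatin, was the reverse case of a member that differed little on WTD alone and by 0.34 ± 0.13 with the drug (edgeR adjusted p = 0.083). The number of members called higher was 5 without the 9 libraries and 11 with limma-voom, which weighs libraries by their quality. Over all genes that number rose as well, from 754 in the edgeR fit to all mice to 1050 and 1819.

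**Figure D3:**
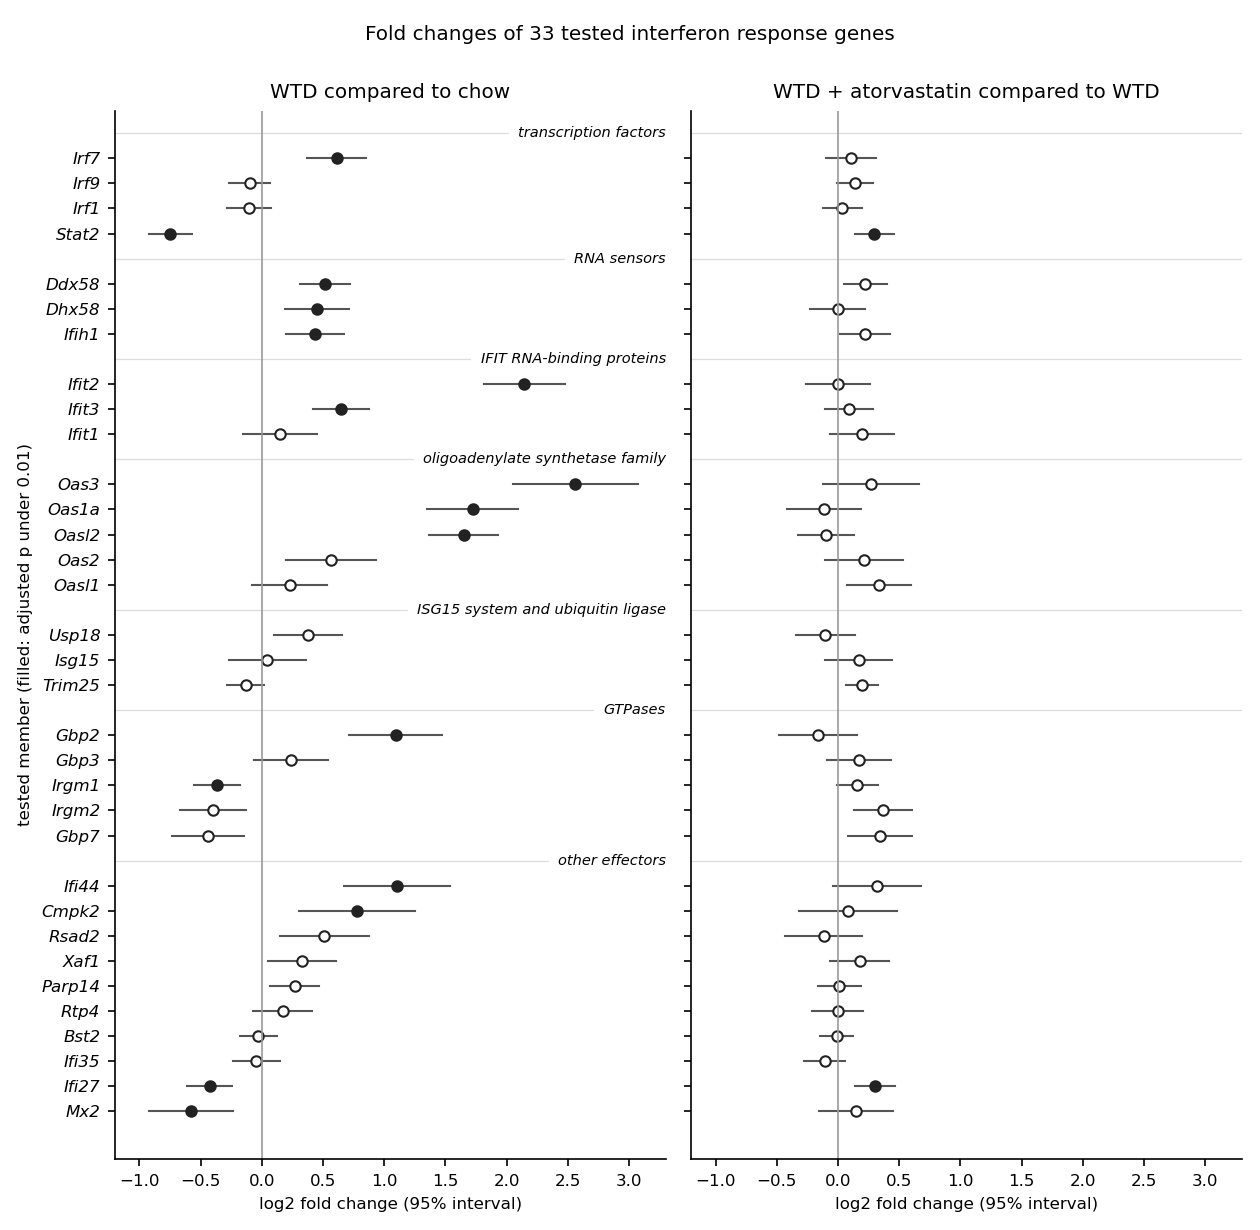
Log2 fold change (x axis) of the 33 tested members by class, with 95% intervals, for WTD over chow (left) and atorvastatin-treated over WTD-fed mice (right). Filled points had an adjusted p under 0.01. On the left, 12 members were higher and 4 lower, with up to 2.56 for Oas3, and on the right Stat2 and Ifi27 were called, both at 0.30.

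Compared to chow, atorvastatin-treated mice had 15 members higher (45.5%, against 14.2% of all tested genes) and 1 lower (3.03%, against 10.7%). This comparison uses the same chow-fed mice as that of WTD. The 15 were the 12 members raised by WTD alone and Oas2, Oasl1 and Xaf1, with 0.78 ± 0.19, 0.56 ± 0.15 and 0.51 ± 0.14 (edgeR adjusted p = 0.00073, 0.0028 and 0.0032). Stat2 was the lowered member, at -0.45 ± 0.09 (edgeR adjusted p = 4.5e-05). In 2 members, Ifit2 and Oas3, treated mice lay wholly above chow-fed mice (6.06%, against 2.88% of all genes), and in 0 wholly below (1.5% of all genes). Ddx58 and Ifi44 were higher by 0.74 ± 0.10 and 1.43 ± 0.22 (edgeR adjusted p = 6.2e-08 and 4.7e-07), next to 0.52 and 1.10 without the drug.

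Some members that lie near each other in the genome, most of them related, differed in their response to the diet. Taking the log2 ratio of the CPM of 2 such genes in each mouse, with 0.1 CPM added to both, in which library size cancels, 11 pairs were compared. The pairs and the order of the genes in each were chosen with the values in view. Neither the sign nor the size of a difference, nor a lack of overlap, is therefore a result about neighbouring genes. Ifit2 alone already separated WTD-fed from chow-fed mice. How other gene pairs differed was not examined, and no test is given. The ratio of Ifit2 to Ifit1 was -1.52 ± 0.74 (SD, n = 10) on chow and 0.52 ± 0.47 (n = 16) on WTD, a difference of 2.04, and its ranges of -3.04 to -0.63 and -0.20 to 1.72 did not overlap. Nor did those of Ifit2 to Ifit3, with a difference of 1.56, and of Gbp2 to Gbp7, which went from -1.02 ± 0.46 to 0.64 ± 0.33. Oas3 to Oas2 differed by 2.06, Oasl2 to Oasl1 by 1.44 and Oas1a to Oas2 by 1.15, with overlapping ranges. The smallest of the 11 differences, that of Cmpk2 to Rsad2, was 0.47 and became -0.02 without the 9 libraries. With atorvastatin the ratios moved by -0.52 to 0.43 and no pair was without overlap. The ratio of Gbp2 to Gbp7 had the largest difference there, from 0.64 ± 0.33 to 0.12 ± 0.33 (SD, n = 16 each).

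**Figure D4:**
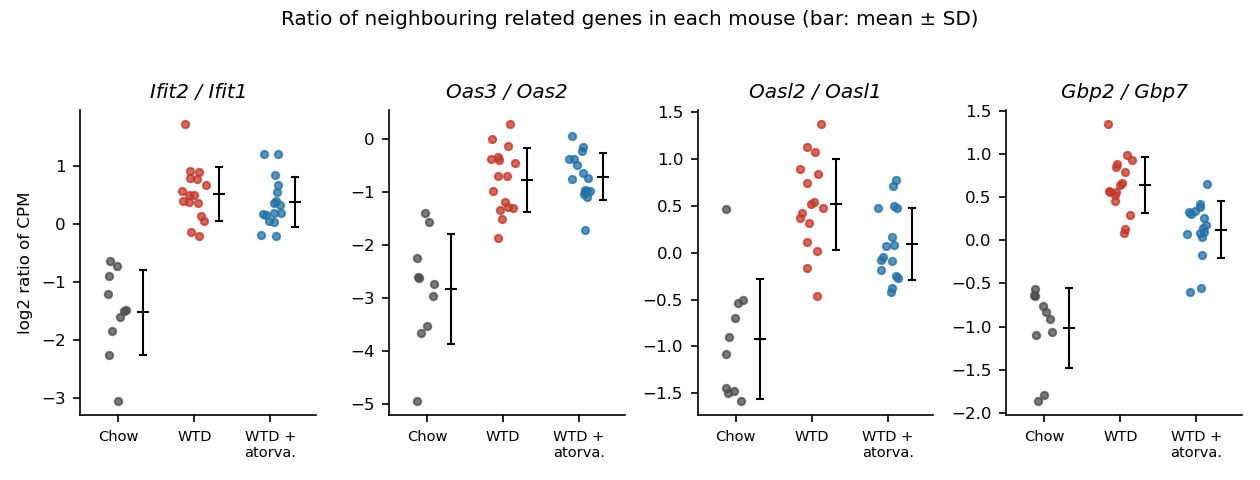
Log2 ratio of the CPM of 2 neighbouring genes (y axis) in each mouse of the 3 groups, with mean ± SD beside the points. The pairs were chosen with the values in view. The ratio of Ifit2 to Ifit1 went from -1.52 on chow to 0.52 on WTD and that of Gbp2 to Gbp7 from -1.02 to 0.64, both without overlap, and treated mice had 0.37 and 0.12.

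Some mice were high or low within their group in most members. WTD-fed mouse 9 was above the group median in 29 of 33 members and the highest of its group in 10, and it is 1 of the 9 libraries. WTD-fed mouse 6 was above the median in only 2 members and WTD-fed mouse 5 in 4. Among the treated mice, numbers 2, 10 and 13 were above the median in 28, 27 and 27 members and number 9 in 2. On chow, mouse 3 was above the median in 26 members and mouse 1 in 9. These counts cover the members only, and how the same mice ranked over all tested genes was not examined.

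The pathway around the members was covered by 101 further genes in 6 lists, of which 78 were tested, and WTD raised 29 (37.2%) and lowered 8 (10.3%) of them, with a median of 0.46, beside 17.5% higher, 16.0% lower and a median of 0.03 over all tested genes. The counts of the single lists below stand beside the same shares. None of 13 interferon genes could be tested. Ifnb1 and 9 others had 0 counts in all mice, and Ifng was at 0.07 CPM on average in chow-fed and 0.03 CPM in WTD-fed mice. Of 11 receptor and kinase genes, 6 rose and 0 fell by edgeR (0 at an unadjusted p under 0.05). The receptor chains of interferon gamma rose the most clearly, Ifngr1 from 28.4 ± 5.94 to 66.1 ± 14.2 CPM (SD, log2 fold change 1.22, edgeR adjusted p = 9.5e-13) and Ifngr2 by 1.07 (edgeR adjusted p = 1.9e-10). Il10rb, a chain shared by the receptors of interferon lambda and interleukin 10, rose by 1.40 (edgeR adjusted p = 7.5e-10). Named after their values were seen, Ifnar1 and Ifnar2, the chains of the type I receptor, differed by 0.12 and -0.07 (edgeR adjusted p = 0.27 and 0.63).

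Of 12 tested genes that sense nucleic acids upstream of interferon, 6 rose and 1 fell. Unc93b1, which carries nucleic acid-sensing Toll-like receptors to endosomes, rose by 1.10 ± 0.08 and Tlr7 by 2.55 ± 0.35 (edgeR adjusted p = 7.4e-16 and 2.6e-08), while Irf3, the factor that first switches on interferon genes, fell by 0.65 ± 0.10 (edgeR adjusted p = 2.3e-07). Of 32 other type I effectors 13 rose and 3 fell. Lgals3bp rose by 1.01 ± 0.08 and Ifi204, a DNA-binding protein of myeloid cells, by 1.41 ± 0.11 (edgeR adjusted p = 2.7e-16 and 2.8e-15), and Apol9b, a gene of the apolipoprotein L family, fell from 313.6 ± 52.1 to 98.6 ± 27.1 CPM (SD, edgeR adjusted p = 2.1e-16). Of 20 listed effectors of interferon gamma 14 were tested, of which 2 were raised (14.3%) and 3 lowered (21.4%), near the shares of all genes. Gbp4, Gbp9, Gbp10, Ifi47 and Tgtp1 had 0 counts in all mice and Ido1 was below the filter, so that no direction is given for them. Ciita, the master regulator of MHC class II genes, rose by 2.02 ± 0.24, and the GTPases Iigp1 and Gbp11 fell by 0.91 ± 0.11 and 1.71 ± 0.26 (edgeR adjusted p = 5.6e-10, 2.1e-09 and 4e-07). Of 9 negative regulators, Samhd1, a nucleotide hydrolase, and Ptpn6, a phosphatase, rose by 0.55 and 0.68 and Trim24, a corepressor, fell by 0.83 (edgeR adjusted p = 4.8e-08, 1.2e-06 and 7.9e-07).

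With atorvastatin, 5 of these 78 genes were higher (6.41%, beside 4.84% of all tested genes) and 4 lower (5.13%, beside 2.26%) than on WTD, and with RLE scaling 3 were higher and 6 lower. Of the 3 receptor chains above, 2 were called lower, Il10rb by -0.52 ± 0.14 and Ifngr2 by -0.38 ± 0.10 (edgeR adjusted p = 0.0074 and 0.0077), and so was Ifi27l2a, a relative of Ifi27, at -0.93 ± 0.18 (edgeR adjusted p = 0.0002). Apol9b, Apol9a and Iigp1 were higher by 0.59 ± 0.11, 0.47 ± 0.11 and 0.42 ± 0.10 (edgeR adjusted p = 0.00011, 0.0013 and 0.0024). These differences rest on the same WTD-fed mice as those of the diet. Mavs, the mitochondrial adaptor of the RNA sensors, was higher by 0.36 ± 0.09 (edgeR adjusted p = 0.0049).

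**Figure D5:**
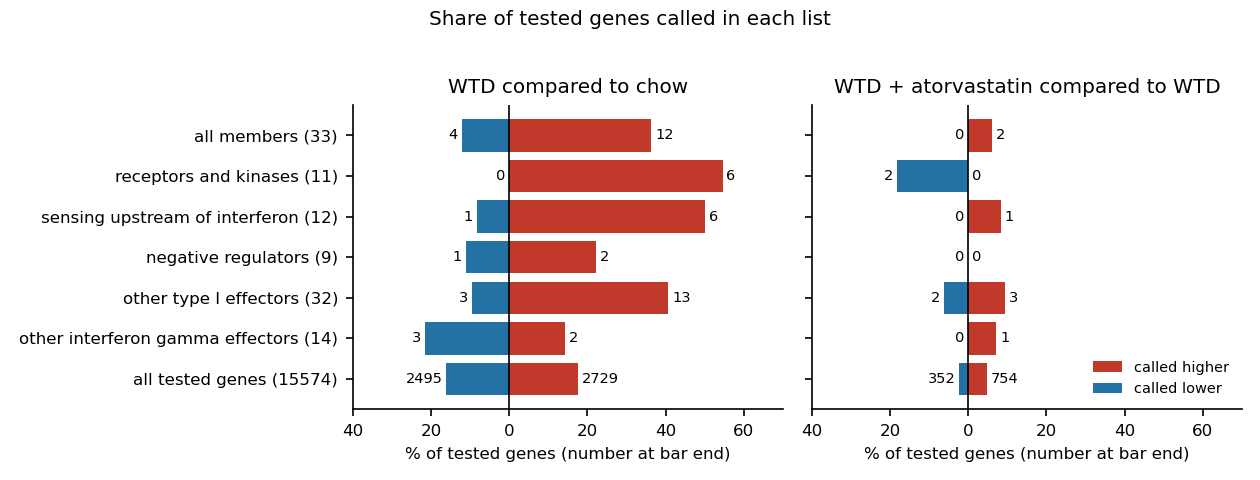
Share of tested genes (%, x axis) called higher (red, to the right) or lower (blue, to the left) at an adjusted p under 0.01, for the members, 5 lists of other interferon pathway genes and all tested genes, with the number of genes at the end of each bar. On WTD 12 members were higher and 4 lower, and with atorvastatin 2 were higher and 0 lower.

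Markers of liver cell types moved between the groups too. In bulk RNA, fewer cells of a type and less RNA per cell cannot be told apart. All 6 hepatocyte markers fell on WTD, and their summed level ranged over 105300 to 153500 CPM on chow, 49580 to 105300 CPM on WTD and 57660 to 126900 CPM with atorvastatin. Of 6 macrophage markers 5 rose on WTD, such as Lyz2 by 3.47 and Csf1r by 1.73, and Itgam was at 0 counts in all mice. Their sum ranged over 142.6 to 218.5 CPM on chow, 798.5 to 1980 CPM on WTD and 614.0 to 1349 CPM with atorvastatin. Summed Kupffer cell markers (5, of which 2 rose) ranged over 223.7 to 449.9, 883.6 to 2339 and 825.3 to 1449 CPM. Their difference on WTD lay mostly in Cd5l, with means of 113.0 CPM on chow and 979.1 CPM on WTD. Clec4f, Timd4 and Marco were not called (edgeR adjusted p = 0.28, 0.18 and 0.053). Marco averaged 52.2 ± 134.1 CPM (SD) on WTD, where the highest mouse had 546.3 CPM. Summed markers of lipid-associated macrophages (5 of 5 rose) ranged over 125.7 to 325.2, 707.4 to 2363 and 645.5 to 1598 CPM. With atorvastatin 3 of the 5 tested macrophage markers and 4 of 5 lipid-associated macrophage markers were lower than on WTD, 4 of 6 hepatocyte markers (Alb, Cps1, Ttr and Hnf4a) were higher, and of the Kupffer cell markers Clec4f was higher and Cd5l lower. Of 4 plasmacytoid dendritic cell markers 2 rose, Tcf4 and Ccr9, with sums of 27.8 to 44.9, 43.9 to 77.3 and 33.9 to 61.0 CPM. These sums were mostly Tcf4, with means of 33.7, 51.1 and 40.7 CPM. Ccr9 averaged 0.08 CPM on chow and 0.84 CPM on WTD, and Siglech and Pacsin1 were not called (edgeR adjusted p = 0.075 and 0.12). With atorvastatin Tcf4 was called lower than on WTD (edgeR adjusted p = 0.0017). Of the T cell (7), NK cell (6) and B cell (4) markers 0 were called by edgeR (1 of each list at an unadjusted p under 0.05). Their sums overlapped between chow-fed mice (4.03 to 20.4, 0 to 8.45 and 0.319 to 54.8 CPM) and WTD-fed mice (6.24 to 23.1, 1.68 to 10.3 and 1.41 to 15.6 CPM). Of other markers, 1 of 5 dendritic cell, 2 of 2 tested neutrophil, 1 of 4 stellate and 4 of 4 cholangiocyte markers rose, and of 4 sinusoidal endothelial markers 1 rose and 1 fell. The part of any of these in the changes of the members was not tested.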

How the data were processed

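Liver RNA was sequenced in 42 mice (10 chow, 16 WTD, 16 WTD with atorvastatin), 1 strand-specific library per mouse. The authors aligned read pairs to GRCm38 with STAR and deposited HTSeq 0.6.1p1 counts per gene without normalization or filtering, which are whole numbers. The merged table equals the 42 single tables. Lines that name no gene (2.27% without a feature, 5.94% ambiguous, 4.67% aligned to several places, on average) were left out. Symbols and lengths came from GENCODE vM21. Low genes were removed by filterByExpr (at least 10 counts, and 15 in total), and one edgeR 4.0.16 model (R 4.3.3) with TMM factors and quasi-likelihood F statistics was fitted to all mice, without covariates since no batch is given. Benjamini-Hochberg adjusted p under 0.01 over 15574 genes was called, after the study's threshold. The fit was tested on simulated data. Fold changes carry standard errors and 95% intervals of this fit. These give the uncertainty of a difference between groups, estimated from the spread between mice, and not the range of single mice. Median counts were 20405093.5 (chow), 21095129 (WTD) and 18180048.5 (atorvastatin).

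Members, lists and tests were chosen with earlier results of these data known. All members are named. Values per group are given for 12 fixed members and for the 6 with the smallest p in each comparison, and of each other list the 3 genes with the smallest p may be named. Alternatives were DESeq2 1.42.0, limma-voom (limma 3.58.1) with quality weights, RLE scaling, no filter, an adjusted p under 0.05, a fit to the groups compared alone, leaving out the 9 libraries poor in weak genes, and leaving out each mouse. Ratios of neighbouring genes (0.1 CPM added) and their version without the 9 libraries were chosen after the data were seen. The motif with 1 more A was an alternative too.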

Additional observations from a re-analysis of the deposited data

Results flagged for a closer look

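Among the 10 chow-fed mice, 5 of 33 tested members had 1 mouse far from the others, by a gap to the next mouse over 0.466 of the group's range on the log2 scale. Chance alone flags about 1 in 20 groups. Oas3 was at 0.101 CPM in chow-fed mouse 5 and between 1.44 and 3.45 CPM in the others. Oas1a was at 2.30 CPM in chow-fed mouse 6, while the others lay between 5.68 and 11.8 CPM. The level of Ifih1 in chow-fed mouse 2 was 11.6 CPM, compared to 27.1 to 49.9 CPM in the rest. Irgm1 stood at 154.9 CPM in chow-fed mouse 5 and at 71.5 to 94.5 CPM in the rest, and Parp14 at 73.4 CPM in chow-fed mouse 2 and at 36.5 to 50.9 CPM in the rest. Chow-fed mice 2, 5 and 6 are the 3 libraries of their group in which over 20% of weak genes had no count. Without chow-fed mouse 5 the fall of Irgm1 on WTD had an edgeR adjusted p of 0.012, and without chow-fed mouse 2 Parp14 was called higher on WTD (edgeR adjusted p = 0.0016). The groups of 16 mice were not examined in this way.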

How the results depend on the processing

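For WTD over chow, 9 to 17 members were higher and 3 to 6 lower under the 7 alternatives, and 11 to 14 and 3 to 6 when each mouse was left out, against 12 and 4. Ifih1 and Dhx58 lost their call without the 9 libraries and with limma-voom, Cmpk2 without the 9 libraries and with only the 2 groups, and Mx2 with only the 2 groups. Leaving out chow-fed mouse 6 or 8 or WTD-fed mouse 4 or 12 ended the call of Cmpk2 (edgeR adjusted p of 0.011 to 0.014), chow-fed mouse 6, 7 or 8 that of Mx2 (0.011 to 0.019), and chow-fed mouse 10 that of Dhx58 (0.012). Calls as lower were gained by Gbp7 without chow-fed mouse 2, 6 or 7, WTD-fed mouse 2, 9, 10 or 16 or treated mouse 1 or 14, and by Irgm2 without chow-fed mouse 1, 2 or 7, WTD-fed mouse 9 or 15 or treated mouse 14. Calls as higher were gained by Oas2 without chow-fed mouse 2, 3 or 8, WTD-fed mouse 1, 5, 6, 12 or 16 or treated mouse 8, by Rsad2 without chow-fed mouse 3 or 4 or WTD-fed mouse 15, by Parp14 without chow-fed mouse 2 or WTD-fed mouse 1, and by Usp18 without chow-fed mouse 5. For atorvastatin over WTD, Stat2 lost its call without WTD-fed mouse 2, 5, 6, 7, 10, 11 or 16 or treated mouse 10 to 14 (edgeR adjusted p of 0.011 to 0.014), Ifi27 without WTD-fed mouse 2, 6, 7, 8, 11, 12, 14 or 15 or treated mouse 3, 5, 10, 11, 13 or 16 (0.01 to 0.02), and Irgm2 gained one without WTD-fed mouse 15. For treated mice over chow, Dhx58 lost its call without chow-fed mouse 5, 7 or 10 or treated mouse 13 (edgeR adjusted p of 0.011 to 0.015). Xaf1 lost its call without chow-fed mouse 1, 6 or 10, and Parp14 gained one without chow-fed mouse 2. Under the 6 alternatives that kept the threshold, Oasl1 and Cmpk2 were each called higher than on chow in 5. Usp18 and Gbp3 each gained a call as higher in 1 of the 6, and Parp14 in 2. Members called higher with atorvastatin over WTD numbered 0 with RLE scaling and with DESeq2, 5 without the 9 libraries, 11 with limma-voom, 4 at an adjusted p under 0.05 and 0 to 2 when each mouse was left out, against 2. All genes called higher there numbered 582 with RLE scaling, 706 with DESeq2, 1050 without the 9 libraries and 1819 with limma-voom, against 754. Other pathway genes higher there were 3 with RLE scaling and 14 with limma-voom, against 5, and those lower 8 with limma-voom and 7 at an adjusted p under 0.05, against 4. Members lower in treated mice than on chow were 2 at an adjusted p under 0.05, against 1. The cause of these differences was not tested. Directions that turned belonged to members without a call. For WTD over chow Bst2 was at 0.0067 with RLE scaling and 0.007 with DESeq2. For atorvastatin over WTD, Ifit2 was at 0.0041 without filter and 0.0104 with limma-voom, Dhx58 at 0.0042, 0.19 and 0.20 and Rtp4 at 0.0053, 0.0808 and 0.16 without filter, without the 9 libraries and with limma-voom, Irf1 at -0.0082 and -0.0079 and Parp14 at -0.0312 and -0.031 with RLE scaling and DESeq2, and Rsad2 at 0.12, Usp18 at 0.0664 and Bst2 at 0.0802 with limma-voom. For treated mice over chow Irgm2 was at 0.024 with limma-voom. The median of all genes moved by less than 0.1 under every scaling. No paired analysis was possible because the groups share no mouse numbers. Members near 2 CPM rest on few counts, and for these a missing count in the 9 libraries does not show absence.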
